A study of Mus musculus with 8 samples.

Results

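Transcripts of lymphoid progenitors that lack E2A were compared with those of wild-type (WT) progenitors over all genes of the array. The members were the genes that a probe set names alone. They were named by 34945 of 45101 probe sets and numbered 18193, each read by its brightest probe set. A total of 11957 genes lay above their array's median on at least 2 of the 8 arrays and were tested, and the other 6236 were too dim to test. The comparison rested on 6 of the 8 arrays of the series, 4 of E2A-KO and 2 of WT cells. The remaining 2 arrays held HEB-KO cells, and they entered the estimate of the spread and a comparison of the knockouts. Mice of all 3 genotypes were C57bl/6 and 10 to 13 weeks old. Marrow cells were sorted as LIN-, FLT3+, CD127+ and LY6D-, which are common lymphoid progenitors (CLP) before the surface protein LY6D appears. Each sort pooled several marrows, so a p-value here reflects how arrays of pooled cells vary, not how mice vary. The labels give the genotype as E2A-KO and name no allele, and they do not say whether each of the 4 arrays had its own sort.

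E2A is the name of the proteins E12 and E47, splice forms made from the gene Tcf3. They are basic helix-loop-helix factors of the E protein family, which pair with each other or with related factors and bind the E-box, a short palindromic DNA motif. Id proteins pair with E proteins and keep them off DNA. In bone marrow E2A is known for opening the lymphoid programme in multipotent cells and, with Ebf1 and Foxo1, for starting the B lineage.

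Differences are given as E2A-KO minus WT on the log2 scale, where -1 is a fall to 50% of the WT intensity, with the standard error (SE) of the fit. "Fell", "rose" and "called" are used only of genes with a limma p under 0.05 after Benjamini-Hochberg adjustment over all 11957 genes. Some signals of the arrays as a whole differed between genotypes. The upper quartile of intensity was 54.88 to 62.75 on E2A-KO and 64.5 and 66.11 on WT arrays. The signal of the spiked hybridization controls was 11.52 to 12.62 (log2) on E2A-KO arrays, 11.40 on WT 1 and 10.29 on WT 2. On HEB-KO 1 and 2 it was 10.32 and 11.60. The gap between the 3′ and 5′ actin probe sets, which widens as RNA is degraded, was 3.86 to 4.78 (log2) on E2A-KO, 4.45 and 3.84 on WT and 3.37 and 3.58 on HEB-KO arrays. For Gapdh it was 5.38 to 5.97 on E2A-KO, 6.03 and 5.0 on WT and 4.67 and 5.14 on HEB-KO arrays. Transcripts of Xist, which is made from the inactive X chromosome, read 11.61 and 11.14 on E2A-KO 2 and 4 and 5.02 and 4.64 on E2A-KO 1 and 3. The Y-linked gene Eif2s3y ran the other way, at 3.27 and 2.63 against 8.34 and 8.21, and both WT arrays had high values of both genes. Neutrophil genes were high on E2A-KO 3 and erythroid genes on E2A-KO 1, as given below. The part of these differences in the results was not tested beyond the settings named with each result.

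In E2A-KO progenitors 47 genes fell (0.393% of those tested) and 6 rose (0.0502%), so 88.7% of the calls were falls. The smallest measured change among the 53 was 2.42-fold. Over all tested genes the median difference was -0.05, and the lower tail was the longer. At least 2-fold lower were 607 genes (5.08%) and at least 2-fold higher 116 (0.970%). At least 4-fold lower were 64 and higher 11. The first percentile of the differences was -1.75 and the 99th was 0.98. At an unadjusted p under 0.05 there were 1172 genes lower and 427 higher. All 4 E2A-KO arrays lay below both WT arrays in 1846 tested genes (15.4%) and above both in 1193 (9.98%), and all 53 called genes were among these. In bulk RNA of sorted cells, fewer cells that express a gene and less RNA of it per cell cannot be told apart, here and in every result that follows.

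**Figure D1:**
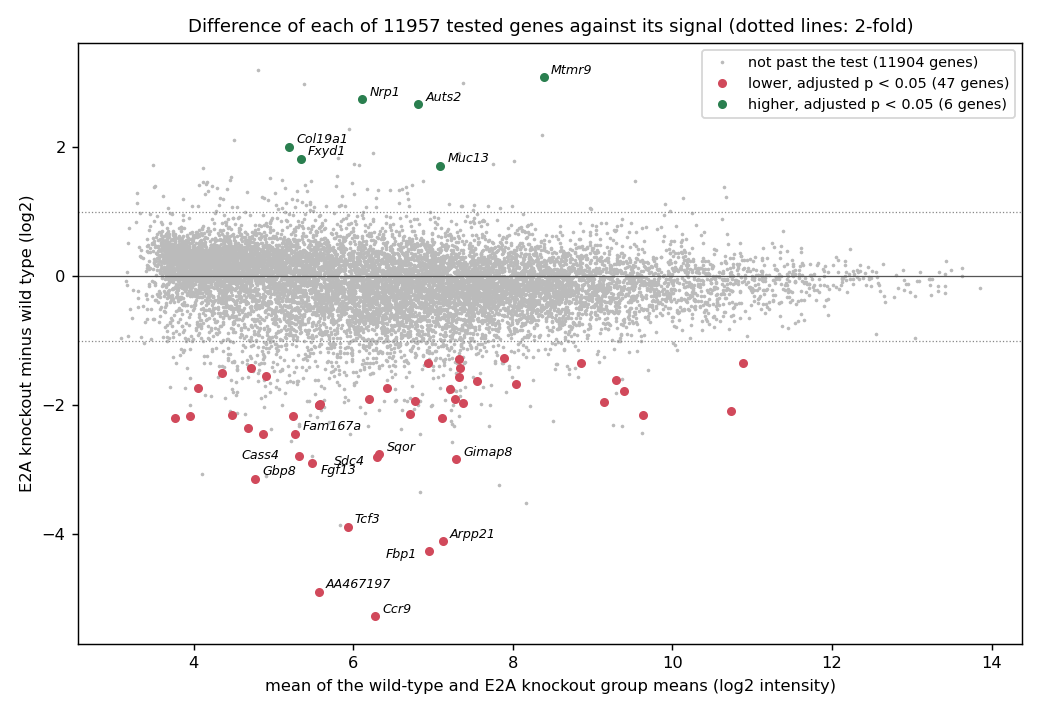
Difference between E2A-KO and WT (vertical axis, log2) of each of the 11957 tested genes against the mean of both group means (horizontal axis, log2 intensity), with the 47 genes that fell in red and the 6 that rose in green. The called genes with the largest changes carry their names, and more grey points lie beyond the lower 2-fold line than beyond the upper.

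The calls rested on single arrays more than the differences did. Without WT 2 the genes past the test were 1 lower and 1 higher, Tcf3 and Mtmr9, and without WT 1 they were 7 lower and 0 higher, with 1006 genes at an unadjusted p under 0.05. Without E2A-KO 1, 2 and 4 the lower calls numbered 33, 18 and 34 and the higher calls 2, 2 and 4, and without E2A-KO 3 there were 82 and 22. Leaving out either HEB-KO array, which only lends its spread, gave 22 and 4. With the hybridization control as a covariate Tcf3 was the gene called. In each of 23 alternative settings every measured gene of the 47 stayed negative, and the median over them lay between -1.67 and -2.05. Settings that changed only the filter, the threshold, the variance model or the HEB-KO arrays could not change a gene's difference. Using only WT and E2A-KO arrays gave the same fit as leaving out either HEB-KO array. An adjusted p under 0.10 or a 2-fold limit could not lose a call. Counts out of 23 are therefore not counts of independent checks. When 1 array was left out, no called gene's log2 difference changed by more than 1.34 times. Taking the mean of all probe sets of a gene, dim ones included, in place of the brightest gave differences over 1.5 times smaller for 20 of the 50 called genes measured that way. Among them were Ccr9 (-1.75), Arpp21 (-2.15), Tcf3 (-1.71), Sqor (-1.26), Fgf13 (-1.30), Foxo1 (-0.92), Notch1 (-1.36), Plcg1 (-0.45), Nrp1 (1.45), Auts2 (1.57) and Col19a1 (1.02). The others were Fcrl1, Mtss1, Pde4b, Rab11fip5, Rhbdl3, Rtp4, Snn, Zfhx3 and Zmynd8, with values from -0.58 to -1.23. Tcf3 was called in 22 of the 23 settings and in all 8 in which an array was left out. Ccr9 and AA467197 were called in 20 settings each, and Arpp21, Fbp1, Gimap8 and Mtmr9 in 18. At the other end, Zfhx3 was called in 6 and Nsmaf, Pde4b, Plcg1, Rhbdl3 and Zmynd8 in 7 each.

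Tcf3 itself, the targeted gene, read 7.76 and 7.98 on the WT arrays and 4.28, 3.71, 4.05 and 3.90 on the E2A-KO arrays. It fell by 3.89 on the log2 scale (14.8-fold, SE 0.22, limma adjusted p = 0.000426), and the arrays of the genotypes did not overlap. Its 2 other probe sets differed by -0.70 and -0.54, and the labels do not say which part of the gene was deleted, so whether a probe set lies in it is not known here. None of the 10 tested genes nearest to Tcf3 on chromosome 10, 5 on either side, was called. Their differences ran from -0.47 (Abhd17a) to 0.44 (Reep6). Among related genes, the difference was -2.15 (SE 0.66, limma adjusted p = 0.222) for Id2, whose product binds E proteins and blocks them, -0.41 (SE 0.27) for Tcf4 and -0.24 (SE 0.22) for Tcf12, both E protein genes. Tcf3 was the member called among the 4 tested genes of the E protein and Id family.

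The sorted cells carried the markers of the gate. All 9 measured CLP markers were above the array median on both WT arrays and 8 on all E2A-KO arrays, Rag1 being the exception. Their mean was 9.72 and 10.20 on WT and 8.27 to 8.70 on E2A-KO arrays, so the genotypes did not overlap. Flt3, the cytokine receptor of the gate, read 10.47 and 10.66 on WT and 10.38, 10.12, 10.27 and 10.53 on E2A-KO arrays, which overlapped, with a difference of -0.24 (SE 0.23). Markers of T cells and stroma were low. The mean over 5 T cell markers was 3.98 and 4.09 on WT and 4.07 to 4.24 on E2A-KO arrays, and over 5 stromal and endothelial markers 3.27 and 3.31 against 3.54 to 3.65. The mean over 6 B cell markers was 4.27 on WT 1, 5.43 on WT 2 and 4.44 to 4.62 on E2A-KO arrays. The pre-B receptor gene Vpreb1 read 3.78 on WT 1 and 8.42 on WT 2, and Rag1, which cuts DNA in V(D)J recombination, read 5.97 and 9.57. The mean over 5 monocyte and macrophage markers was 5.42 and 5.16 on WT and 4.58 to 4.86 on E2A-KO arrays, without overlap. Of these markers Csf1r and Lyz2 differed by -1.36 (SE 0.32) and -1.49 (SE 0.35), with limma adjusted p-values of 0.116 and 0.118, Cd14 by 0.42, and Itgam and Adgre1 were dim. The part of such cells in the results was not tested. Neither Vpreb1 nor Rag1 passed the test, and their part in other differences between WT 2 and the knockout was not tested beyond the counts without WT 2 given above.

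The gene with the largest measured difference was Ccr9, the receptor for the thymic chemokine Ccl25. It read 8.63 and 9.19 on the WT arrays and 4.06, 2.74, 3.97 and 3.77 on the E2A-KO arrays, 38.8-fold lower (log2 difference -5.28, SE 0.42, limma adjusted p = 0.00334). All knockout arrays lay far below both WT arrays. On 2 of them Ccr9 was at or below the array's median, the level under which genes count as dim here. Raising dim values to that median gives a fall of at least 30.8-fold. Ccr9 is also a marker of plasmacytoid dendritic cells. Of the 4 other measured markers of these cells, Siglech and Spib differed by 0.79 (SE 0.53) and 0.83 (SE 0.92), Bst2 by -0.37 (SE 0.42) and Irf8 by 0.00 (SE 0.42), none of them called. The mean over the 5 markers, Ccr9 included, was 6.82 and 7.55 on WT and 5.49 to 7.16 on E2A-KO arrays, which overlapped.

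AA467197, which encodes a small mitochondrial protein, read 7.77 and 8.25 on WT and 3.05, 2.60, 2.96 and 3.85 on E2A-KO arrays, a measured difference of -4.89 (SE 0.45, limma adjusted p = 0.0072). All 4 knockout values were at or below the array median, so the fall is given as at least 17.0-fold. The same held for Uaca (at least 3.82-fold), Serpinb6b (3.09-fold), Gpr174 (2.16-fold), Map3k8 (1.99-fold) and Tnfsf11 (1.91-fold). Of the 47 genes that fell, 17 had 1 or more knockout arrays at that level, and their order by size is not settled. Fbp1, the bisphosphatase that commits carbon to gluconeogenesis, read 9.31 and 8.85 on WT and 4.50, 4.15, 4.43 and 6.16 on E2A-KO arrays. It fell by 4.27 (SE 0.53, limma adjusted p = 0.0164), with E2A-KO 4 the highest knockout array and still well below WT. Arpp21, an RNA-binding phosphoprotein regulated by cyclic AMP, read 9.06 and 9.30 on WT and 5.69, 5.38, 5.35 and 3.84 on E2A-KO arrays. It fell by 4.11 (SE 0.51, limma adjusted p = 0.0164), here with E2A-KO 4 the lowest. A second probe set of Arpp21 also passed the test over all probe sets, with a difference of -3.91, as did one of Ccr9 with -3.29.

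The promoters of these 4 genes are shown because E proteins bind E-boxes. Each window runs from 250 bases before to 50 after a RefSeq transcript start (assembly GRCm38.p6), 5′ to 3′ on the gene's strand. Capitals mark CAGCTG and CAGGTG, the latter also read on the other strand as CACCTG, the E-box letters that E2A dimers are known to prefer. Ccr9 lies at chr9:123766961-123767260 on the plus strand, AA467197 at chr2:122637637-122637936 on the plus strand, Fbp1 at chr13:62888233-62888532 on the minus strand and this Arpp21 start at chr9:112217302-112217601 on the minus strand.
Ccr9: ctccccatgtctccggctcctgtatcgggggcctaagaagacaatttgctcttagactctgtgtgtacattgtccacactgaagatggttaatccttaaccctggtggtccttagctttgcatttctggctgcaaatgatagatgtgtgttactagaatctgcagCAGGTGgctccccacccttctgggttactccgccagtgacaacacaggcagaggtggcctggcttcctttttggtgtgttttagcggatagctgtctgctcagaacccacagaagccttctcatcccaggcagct
AA467197: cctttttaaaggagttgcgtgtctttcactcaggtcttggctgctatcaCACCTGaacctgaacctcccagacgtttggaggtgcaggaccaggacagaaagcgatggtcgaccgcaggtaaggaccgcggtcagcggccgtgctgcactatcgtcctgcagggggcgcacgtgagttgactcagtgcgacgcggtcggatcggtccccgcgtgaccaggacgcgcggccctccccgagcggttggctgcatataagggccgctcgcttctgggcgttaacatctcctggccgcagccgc
Fbp1: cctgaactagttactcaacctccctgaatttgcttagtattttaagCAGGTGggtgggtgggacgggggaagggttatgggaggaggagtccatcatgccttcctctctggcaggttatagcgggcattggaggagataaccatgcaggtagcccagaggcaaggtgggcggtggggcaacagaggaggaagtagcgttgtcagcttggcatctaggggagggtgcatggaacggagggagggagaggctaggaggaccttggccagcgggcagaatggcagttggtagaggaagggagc
Arpp21: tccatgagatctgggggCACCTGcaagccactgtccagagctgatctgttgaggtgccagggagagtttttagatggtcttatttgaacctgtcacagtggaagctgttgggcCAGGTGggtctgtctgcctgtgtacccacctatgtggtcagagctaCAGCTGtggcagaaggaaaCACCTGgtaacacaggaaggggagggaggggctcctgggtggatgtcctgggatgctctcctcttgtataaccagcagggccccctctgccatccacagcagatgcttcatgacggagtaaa
The windows of Ccr9, AA467197 and Fbp1 hold 1 such match each, and this window of Arpp21 holds 4. It was chosen as the one with the most matches among the 9 windows of Arpp21, of which 2 hold none. A window was found for 38 of the 53 called genes. Of 60 windows of genes that fell, 20 (33.3%) held CAGCTG or CAGGTG, against 32.9% of 32851 windows of all genes and 31.0% of the windows of tested genes. Windows of the same gene can overlap and were counted separately, as for Arpp21. Counted by gene, 13 of 34 that fell (38.2%) had such a window, against 35.9% of all genes and 34.7% of tested genes. None of the 5 windows of genes that rose held either. The looser motif CANNTG, which includes both, was in 73.3% of the windows of genes that fell, 72.3% of all and 64.4% of those of tested genes. No test was made of these shares. A match is not a bound site, and a window without these letters says nothing of binding elsewhere.

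**Figure D2:**
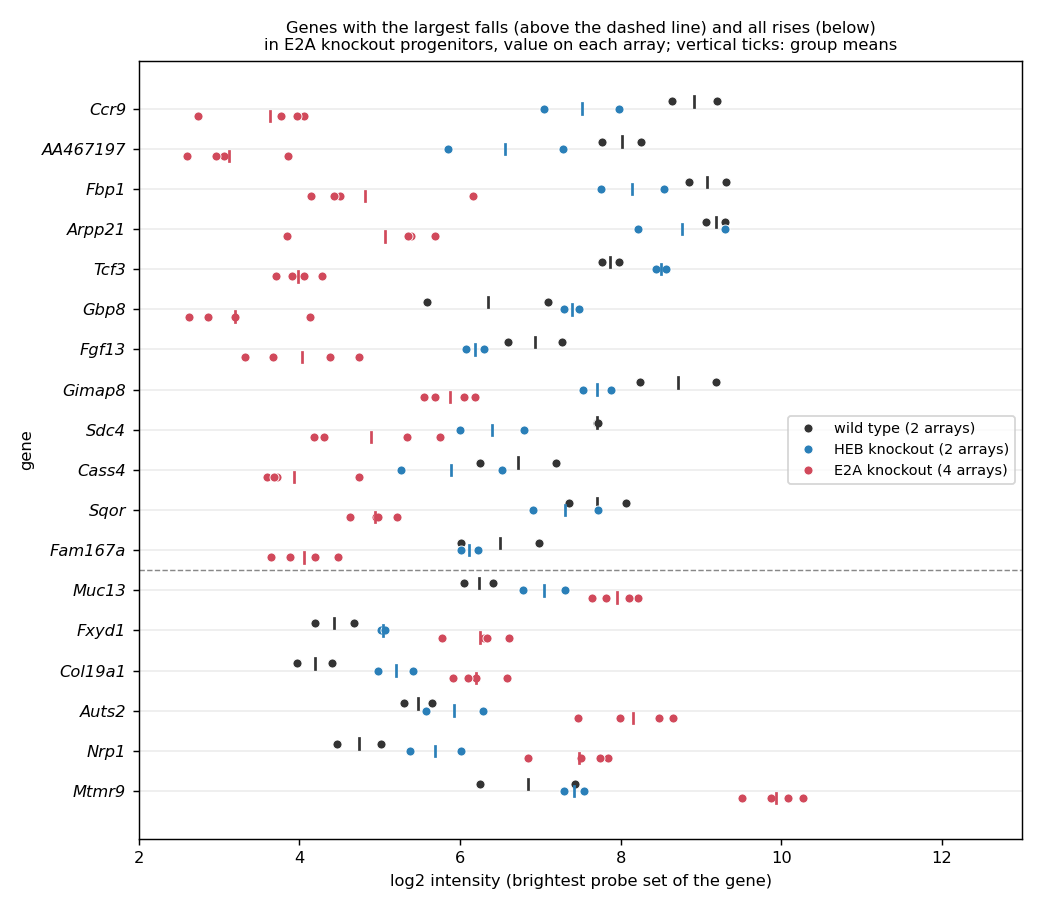
Log2 intensity (horizontal axis) on each array of the 12 genes with the largest falls and the 6 genes that rose (vertical axis), with WT arrays in dark grey, HEB-KO arrays in blue, E2A-KO arrays in red and the mean of each group as a vertical tick. The 4 E2A-KO points of each gene lie on one side of both WT points, and the widest spread among E2A-KO points is that of Fbp1.

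Other genes with measured falls of more than 5-fold were of several kinds. Gbp8, an interferon-inducible guanylate-binding protein, read 5.59 on WT 1, 7.10 on WT 2 and 3.20, 2.86, 2.62 and 4.13 on E2A-KO arrays. Its difference of -3.14 (SE 0.49, limma adjusted p = 0.0396) was -2.38 without WT 2. Fgf13, a fibroblast growth factor homologue that stays in the cell and binds ion channels and microtubules, read 6.60 and 7.27 on WT and 4.74, 3.32, 4.38 and 3.67 on E2A-KO arrays, and fell by 2.90. Gimap8, a GTPase of lymphocyte survival, read 8.24 and 9.18 against 6.19, 5.55, 5.68 and 6.05, and fell by 2.84. In these 3 genes WT 2 was the higher WT array and the genotypes did not overlap. Sdc4, a heparan sulfate proteoglycan of the cell surface, read 7.70 and 7.71 on WT and 5.34, 4.18, 4.30 and 5.75 on E2A-KO arrays. Cass4, a scaffold of focal adhesions, read 6.24 and 7.19 against 4.74, 3.59, 3.72 and 3.68. Sqor, the mitochondrial oxidase of hydrogen sulfide, read 7.35 and 8.06 against 4.95, 4.64, 5.22 and 4.97. Their differences were -2.81 for Sdc4, -2.79 for Cass4 and -2.76 for Sqor, and E2A-KO 1 stood above the other knockout arrays for Cass4. Fam167a, a gene of little known function, read 6.01 and 6.98 on WT and 4.48, 3.65, 3.88 and 4.19 on E2A-KO arrays and fell by 2.45. Limma adjusted p-values of these 6 genes from Fgf13 to Fam167a lay between 0.0131 and 0.048.

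Further receptors and ligands of the cell surface fell. Il7r, the interleukin 7 receptor chain that is CD127 of the gate, read 10.51 and 10.91 on WT and 8.56, 7.89, 8.73 and 9.04 on E2A-KO arrays, 4.45-fold lower. Notch1, the receptor of T-lineage commitment, read 11.63 and 11.92 against 10.11, 9.31, 9.83 and 9.49, 4.26-fold lower. Both genes stayed among the brighter genes of the array in the knockout. Gpr174, a receptor for lysophosphatidylserine, fell by 2.16 (SE 0.31), and Tbxa2r, the thromboxane receptor, fell by 1.90 (SE 0.24). Tnfsf11, which encodes the cytokine RANKL, fell by 2.19 (SE 0.32) from 5.42 and 4.30 on WT to 2.54 to 2.84 on E2A-KO arrays. Inhibitory and Fc-receptor-like proteins of lymphoid and myeloid cells were also among the falls. Fcrl1 fell by 2.00 (SE 0.32), and falls were also seen for the sialic acid lectin Cd33 (-1.98, SE 0.22) and Cd72, an inhibitory coreceptor of B cells (-1.56, SE 0.23). Cd93, a marker of early B-lineage progenitors, fell by 1.34 (SE 0.19), with all 4 E2A-KO arrays between 10.16 and 10.26 against 11.49 and 11.63 on WT. Limma adjusted p-values of the 9 genes ran from 0.0131 to 0.0416.

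Enzymes and adaptors of signalling fell as well, by smaller amounts. Dgka, the kinase that removes diacylglycerol after antigen receptor signals, fell by 2.00 (SE 0.25), and Plcg1, the phospholipase that makes diacylglycerol, fell by 1.27 (SE 0.21). These act on the same lipid in opposite directions. Falls were also seen for Pde4b, which degrades cyclic AMP (-1.43, SE 0.24), Map3k8, a kinase upstream of ERK (-1.73, SE 0.27), and Nsmaf, an adaptor of the TNF receptor (-1.35, SE 0.22). Proteins of the cytoskeleton and of membrane traffic were Arhgef3 (-1.90, SE 0.22), Mtss1, which bends membranes and binds actin (-1.93, SE 0.27), Pdlim2, an actin-linked adaptor (-1.49, SE 0.23), and Rab11fip5 of recycling endosomes (-1.96, SE 0.22). Other falls were those of Uaca, an ankyrin repeat protein (-2.36, SE 0.27), Padi2, which converts arginine to citrulline in proteins (-1.74, SE 0.27), and the intramembrane protease relative Rhbdl3 (-1.42, SE 0.24). Snn (-1.68, SE 0.28) and Dpy19l4 (-1.55, SE 0.23) complete this set of membrane and signalling genes. Limma adjusted p-values ran from 0.0131 to 0.0498.

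Nuclear proteins that fell were factors of transcription, chromatin and DNA repair. Foxo1, a forkhead factor of the early B-cell programme, read 7.93 and 8.49 on WT and 6.60, 5.53, 5.60 and 6.34 on E2A-KO arrays and fell by 2.19 (SE 0.35). Hmga2, a chromatin protein of fetal and stem cells, fell by 2.14 (SE 0.35), and its 3 other probe sets differed by -3.70, -1.94 and -4.48, each past the test over all probe sets. Smaller falls were those of Cdk19, a kinase of the Mediator complex (-1.95, SE 0.20), Zmynd8, a reader of histone marks (-1.35, SE 0.23), and the zinc finger homeobox factor Zfhx3 (-1.29, SE 0.21). Of DNA repair genes, Nabp1, which binds single-stranded DNA (-2.17, SE 0.25), Xrcc6, the Ku70 subunit of end joining (-1.79, SE 0.28), and Xpc, which detects damage for nucleotide excision repair (-1.61, SE 0.24), fell. For Xpc the WT arrays read 10.07 and 10.12 and the E2A-KO arrays 8.04 to 8.74. Cdk19 had the smallest SE of these genes, with 7.96 to 8.34 on E2A-KO against 10.09 and 10.14 on WT arrays. Limma adjusted p-values of these genes lay between 0.0131 and 0.0498.

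Interferon-induced genes and the gene of a protease inhibitor made up the rest of the falls. Usp18, which removes the modifier ISG15 and dampens the interferon receptor, fell by 2.44 (SE 0.35), and the chaperone of receptors Rtp4 (-1.74, SE 0.23) and the interferon-inducible transcript AW112010 (-1.63, SE 0.23) fell too. Serpinb6b, an inhibitor of serine proteases inside the cell, fell by 2.16 (SE 0.26), from 5.59 and 5.52 on WT to 3.15 to 3.78 on E2A-KO arrays. Limma adjusted p-values were 0.0164 to 0.0276.

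The 6 genes that rose had no evident common function. Mtmr9, a myotubularin without phosphatase activity that binds active members of the family, read 6.25 and 7.43 on WT and 10.08, 9.50, 9.87 and 10.27 on E2A-KO arrays. It rose by 3.09 (SE 0.35, limma adjusted p = 0.0131), and its 2 other probe sets differed by 1.94 and 2.83. Nrp1, a coreceptor for semaphorins and vascular growth factor, read 4.46 and 5.01 on WT and 6.84, 7.85, 7.50 and 7.74 on E2A-KO arrays (2.75, SE 0.34). Auts2, a component of a Polycomb complex, read 5.31 and 5.65 on WT and 8.48, 7.99, 7.47 and 8.65 on E2A-KO arrays (2.67, SE 0.36). In all 3 every E2A-KO array lay above both WT arrays. The collagen gene Col19a1 read 3.97 and 4.41 on WT and 6.20, 6.10, 6.59 and 5.91 on E2A-KO arrays (2.01, SE 0.26). Fxyd1, which tunes the sodium-potassium ATPase, read 4.19 and 4.67 against 6.30, 6.60, 5.78 and 6.33 (1.82, SE 0.27). Muc13, a membrane-bound mucin, read 6.05 and 6.41 against 7.65, 7.82, 8.22 and 8.10 (1.72, SE 0.26). Limma adjusted p-values of the 5 genes after Mtmr9 ran from 0.0164 to 0.033. Both HEB-KO arrays lay above the lower WT array for all 6 genes, and between the WT and E2A-KO arrays for Muc13, Fxyd1, Col19a1 and Nrp1.

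Called genes lay on 18 of the tested chromosomes, with a pair of close neighbours. All 53 could be placed in the RefSeq gene order. The 2 called genes next to each other were Fam167a, which fell, and Mtmr9, which rose, on chromosome 14. AA467197 and Sqor, which both fell, were 3 tested genes apart on chromosome 2, where 8 of 948 tested genes were called (0.844%). Chromosome 14 had 5 calls among 401 tested genes (1.25%) and chromosome 10, which holds Tcf3, 5 among 572 (0.874%), while over all tested genes 0.443% were called. None of 618 genes on chromosome 17 and 428 on chromosome 12 was called, and 1 of 1027 on chromosome 11. The strain is labelled C57bl/6, the origin of the knockout allele is not described in the labels, and whether the genotypes have the same sequence at these loci was not tested.

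Other probe sets of the called genes mostly moved the same way and less. Of the 53 genes, 22 had a single probe set. The other 31 had 72 further probe sets, of which 55 had the sign of the called one and 17 the opposite sign, and 7 passed the test over all 19323 probe sets. These 7 belonged to Arpp21, Auts2, Ccr9, Cd93 and Hmga2, and no further probe set of any other called gene passed. Some called probe sets missed that test too. Those of Il7r, Foxo1, Hmga2 and Plcg1, among others, had limma adjusted p-values of 0.0508, 0.0607, 0.0676 and 0.0770 in it. A miss there is thus not by itself a lack of support. Only 42 of the 72 were bright enough to be tested. Among those 42 an opposite sign was seen for Cd93, where 1 probe set differed by 0.33 and the 3 others by -1.86, -2.18 and -0.97. For Plcg1 and Rab11fip5 another tested probe set differed by -0.08 and -0.06, and for Nabp1 by -0.46, so their falls rest on a single probe set. The same holds for 9 genes whose other probe sets were all dim, namely Fcrl1, Fgf13, Gpr174, Rhbdl3, Rtp4, Snn, Sqor, Tnfsf11 and Xrcc6. For Mtss1 the 4 other tested probe sets differed by -0.06, -0.65, -1.10 and -0.45. Other tested probe sets differed by -0.63 for Notch1, by -0.96 and -0.65 for Foxo1 and by 1.03, 1.15 and 0.88 for Nrp1.

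Just outside the threshold the same direction prevailed. With an adjusted p from 0.05 to 0.10 there were 100 genes, 85 with negative and 15 with positive differences. The 14 described next had limma adjusted p-values from 0.0507 to 0.0555 and are given as values. Blnk, the adaptor that links the pre-B receptor to its kinases, differed by -3.24 (SE 0.56). Emp1, a tetraspan membrane protein, differed by -3.34, the serine protease gene Tmprss3 by -2.79 and Slc27a2, a fatty acid transporter, by -2.56. Frmd6 differed by -2.32, the vascular growth factor-like gene Egfl7 by -2.01, and Cd86, a costimulatory ligand of T cells, by -1.80. Smaller were the differences of the pseudokinase gene Peak1 (-1.61), Tbc1d10c (-1.39), the cytokine gene Clcf1 (-1.37), Uba7, the enzyme that activates ISG15 (-1.14), and Dipk1b (-1.13). The predicted gene Gm11342 differed by -1.74, and Ppp1r36, which encodes a regulatory subunit of a protein phosphatase, was the one positive among the 14, at 1.67. The values of Blnk and Emp1 exceed those of most called genes, and their arrays varied more.

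The pathway lists were described by how many tested members were called and by their median difference, against -0.05 over all tested genes and the shares called of 0.393% and 0.0502%. Centring every array on its median moved the overall median to 0.14, with 45 genes lower and 15 higher (75% of calls lower), and testing only the brighter genes moved it to -0.16. Only medians well away from these values are read. Of 79 lists, 27 had a called member, and 25 of the 53 called genes stood in a list. Lists and their members were chosen with earlier results of these data known, so these counts and the medians can partly reflect that choice. Medians of the 78 lists with at least 5 tested members ran from -1.22 to 0.53. The sign of the median changed in 28 lists when arrays were centred, in 26 with the hybridization control as covariate, in 22 after cyclic loess and in 16 when only brighter genes were tested, so medians near 0 have no settled direction.

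**Figure D3:**
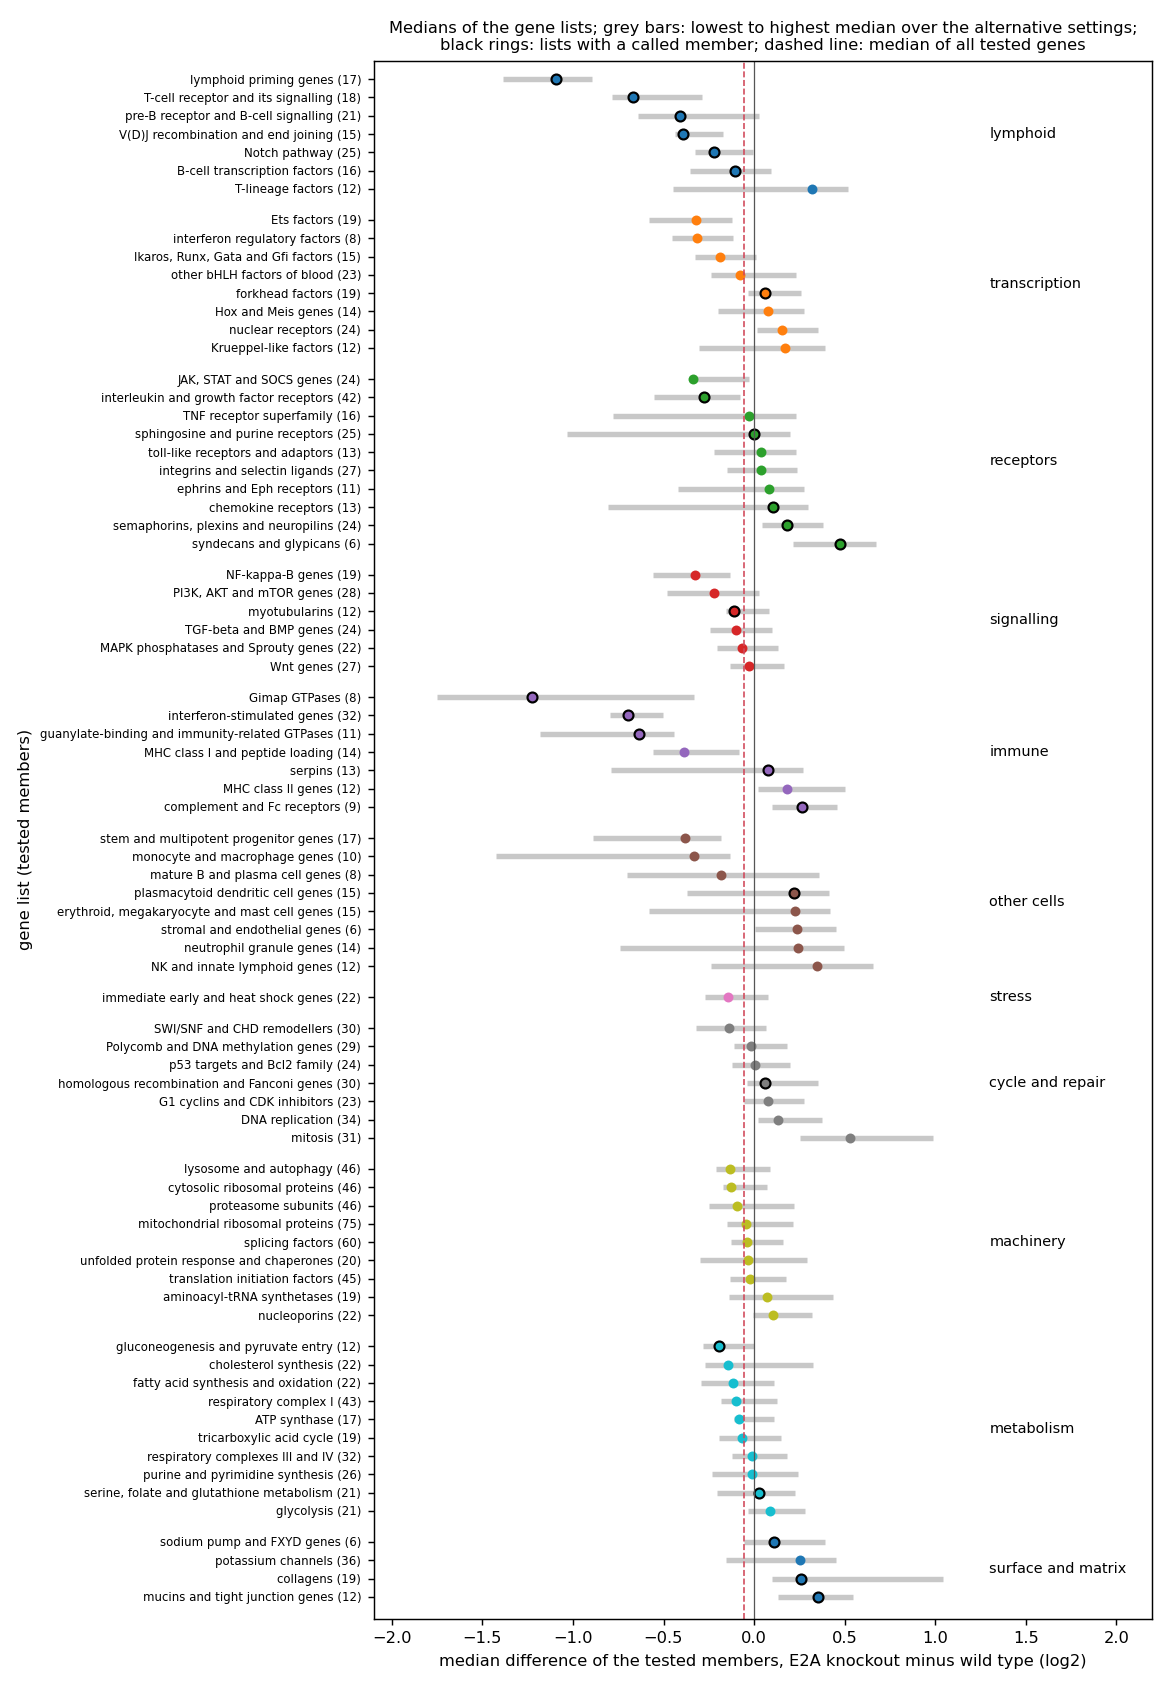
Median log2 difference between E2A-KO and WT (horizontal axis) of the tested members of the lists with at least 5 (vertical axis, number tested in brackets), ordered by theme, with 1 list not shown. Grey bars span the medians under the alternative settings, black rings mark lists with a called member and the dashed line is the median of all tested genes, -0.05. Gimap GTPases, lymphoid priming genes and interferon-stimulated genes lie farthest to the left and mitosis genes farthest to the right.

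Lymphoid lists lay lowest where they hold genes of priming and receptor signalling. All 17 tested genes of lymphoid priming had negative differences, with a median of -1.09, and 4 fell, namely Ccr9, Il7r, Notch1 and Gpr174. Members of this list were chosen with earlier results of these data known, so the shared sign can partly reflect that choice. The mean over the list was 7.88 and 8.42 on WT and 6.37 to 6.83 on E2A-KO arrays, and the median lay between -0.90 and -1.39 in every alternative setting. Uncalled members included Ltb, a lymphotoxin chain (-1.09), beside Blnk and Rag1. Of 18 tested genes of the T-cell receptor and its signalling, 14 were negative (median -0.67) and Plcg1 fell, while Cd247, the zeta chain, and the adaptor Lat differed by -1.62 and -1.40. With the hybridization control as covariate that median was -0.29. The 21 tested genes of pre-B receptor signalling had a median of -0.41, which was 0.03 without WT 2, and Cd72 fell. The kinase Syk and the adaptor Bank1 differed by -1.57 and -1.86 without passing the test. V(D)J recombination and end joining had a median of -0.39 over 15 genes (-0.17 without E2A-KO 3), and Xrcc6 fell. Notch pathway genes had a median of -0.22 over 25, which was -0.14 without E2A-KO 1 and -0.03 without E2A-KO 3, and besides Notch1 none was called. Dtx4, which ubiquitinates Notch, differed by -1.32 and the glycosyltransferase gene Mfng by -0.90. The list of T-lineage factors stood apart from these, with 8 of 12 positive and a median of 0.32. Zbtb16 and Tox, factors of innate-like and T-lineage cells, differed by 1.53 and 1.49, none of the list was called, and its median was -0.45 when only brighter genes were tested.

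Among immune defence lists, those of Gimap, interferon-stimulated, GTPase and MHC class I genes had negative medians. All 8 Gimap genes were negative (median -1.22). Gimap8 fell, and Gimap9, Gimap6 and Gimap1 differed by -1.94, -1.71 and -1.64. The list mean was 6.35 on WT 1, 7.0 on WT 2 and 5.17 to 5.59 on E2A-KO arrays, and the median was -0.74 without WT 2 and -0.33 with the hybridization control as covariate. Among 32 interferon-stimulated genes 29 were negative (median -0.70). Usp18 and Rtp4 fell, 11 were at least 2-fold lower, and Oasl2, Ifitm3 and Ifih1, which make up part of the antiviral response, differed by -2.12, -1.99 and -1.19. The mean of this list was 7.06 and 6.97 on WT and 6.03 to 6.35 on E2A-KO arrays, and its median stayed between -0.50 and -0.79 in every alternative setting. Of 11 guanylate-binding and immunity-related GTPases 10 were negative (median -0.64). That median was -0.97 without WT 1, -0.46 without WT 2 and -0.44 with arrays centred. Gbp8 fell, and Iigp1, Gbp2 and Irgm2 differed by -2.45, -2.32 and -1.73. MHC class I and its peptide loading had 13 of 14 negative and a median of -0.39 (-0.16 without WT 2), with no call, and H2-K1 and B2m, the heavy and light chain, at -0.92 and -0.77. MHC class II genes had a median of 0.18 over 12, which was 0.09 without WT 1 and 0.02 without E2A-KO 4, with no call and H2-Aa at 2.19. Serpins had a median of 0.08 over 13, and Serpinb6a and Serpinb9 differed by -1.11 and -0.81 beside the fall of Serpinb6b. Complement and Fc receptor genes had a median of 0.26 over 9, with 7 positive, and Fcrl1 fell.

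Cytokine receptors and their pathways lay below the overall median with few calls. Il7r was the member called among 42 interleukin and growth factor receptors (median -0.28, -0.17 without WT 2). Kit, the receptor for stem cell factor, differed by -2.08, Il27ra by -1.53 and Il31ra by 1.75. Of 24 genes of JAK, STAT and SOCS proteins 18 were negative (median -0.33) and none was called. That median was -0.14 without WT 2, -0.22 without E2A-KO 2 and -0.03 with the hybridization control as covariate. Stat4 and Socs6 differed by -1.23 and -1.33 and Socs2, a feedback inhibitor, by 1.73. NF-kappa-B genes were negative in 16 of 19 (median -0.33), again with no call. The inhibitors Nfkbia and Nfkbie differed by -0.70 and -1.30 and Birc3 by -1.40. The median of this list was -0.51 without WT 1 and -0.56 without E2A-KO 4. It was -0.13 with arrays centred and -0.17 with the hybridization control as covariate. PI3K, AKT and mTOR genes had a median of -0.22 over 28, which was -0.48 without WT 1 and -0.05 without WT 2, with no call and the regulatory subunit Pik3r1 at -0.89. Ccr9 was the member called among 13 chemokine receptors, whose median was 0.10, and Ccr7 and Ccr6 differed by -0.81 and 0.95. Gpr174 was called among 25 receptors for sphingosine, purines and related lipids (median 0.00), with Ptger2, a prostaglandin receptor, at -2.25 and P2ry14 at -1.57. Nrp1 was called among 24 semaphorins, plexins and neuropilins (median 0.18, 0.04 without WT 1 and 0.06 without E2A-KO 4) and Sdc4 among 6 syndecans and glypicans, where Sdc1 differed by 1.12 in the other direction. Of 27 integrins and selectin ligands none was called, and Itga4, the alpha chain of VLA-4, differed by 1.22.

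Among transcription factors few lists departed from the overall median. Foxo1 was the call among 19 forkhead genes (median 0.06) and among 16 B-cell factors (median -0.10, but 0.08 without WT 2 and 0.09 with arrays centred), where Ebf1 differed by -3.06 (SE 0.75). Ets factors had a median of -0.32 over 19 with no call, and it was -0.54 without WT 1, -0.52 without E2A-KO 1 and between -0.17 and -0.20 without WT 2, E2A-KO 2 or E2A-KO 3. Ets1 and Etv5 differed by -1.77 and -1.35. Interferon regulatory factors were negative in 7 of 8 (median -0.31, -0.12 without WT 2), with no call and Irf1 at -0.75. Nuclear receptors had a median of 0.16 over 24 with no call, while Pgr and Nr3c1, the progesterone and glucocorticoid receptors, differed by -2.19 and -1.76. Klf2, a factor of lymphocyte quiescence, differed by 1.92 among 12 Krueppel-like factors, Mxd3, a partner of Max, by 1.55 among 23 other basic helix-loop-helix factors, and Meis1 by -1.20 among 14 Hox and Meis genes, each in a list with no call.

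Mitosis genes had a positive median. Of 31 mitosis genes 26 were positive (median 0.53), none was called, and Ccna2, Tpx2 and Bub1b, which drive entry into and passage through mitosis, differed by 1.03, 0.89 and 0.72. The list mean was 7.82, 8.35, 7.10 and 6.90 on the E2A-KO arrays and 7.06 and 7.18 on WT, so the genotypes overlapped, and the median was 0.25 without E2A-KO 2. DNA replication genes had a median of 0.13 over 34 with no call (0.02 to 0.24 with 1 array left out), and list means of 8.55 to 9.06 overlapped 8.66 and 8.70 on WT. Nabp1 was the call among 30 genes of homologous recombination and the Fanconi pathway (median 0.06), with Rad52 at -1.24. No gene was called among 24 p53 targets and Bcl2 family genes (median 0.00), 23 G1 cyclins and CDK inhibitors (0.08), 29 Polycomb and DNA methylation genes (-0.02) or 30 SWI/SNF and CHD remodellers (-0.14).

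The common machinery and metabolism of the cell stayed near the overall median. Medians were -0.13 over 46 cytosolic ribosomal proteins, -0.04 over 75 mitochondrial ribosomal proteins, -0.09 over 46 proteasome subunits, -0.04 over 60 splicing factors and -0.10 over 43 genes of respiratory complex I. None of these genes was called, and each of these medians changed sign when arrays were centred on their medians. Fbp1 was the call among 12 genes of gluconeogenesis and pyruvate entry (median -0.19), and Sqor among 21 of serine, folate and glutathione metabolism (median 0.03). Glycolysis genes had a median of 0.09 over 21 and no call, with the hexokinase gene Hk1 at -1.39 and Ldhb, a lactate dehydrogenase chain, at -1.34. Cox6a2, a subunit of cytochrome oxidase, differed by -1.80 among 32 genes of complexes III and IV, whose median was -0.01. Ctsh, a lysosomal protease, had the largest positive difference among 46 genes of the lysosome and autophagy (2.99, adjusted p = 0.11).

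Lists of dim genes lay slightly above 0, as dim genes did in general. When the tested genes were split into 4 equal groups by brightness, the medians were 0.17, -0.08, -0.19 and -0.14 from the dimmest to the brightest. Collagens (median 0.26 over 19, with Col19a1 called), mucins and tight junction genes (0.35 over 12, with Muc13 called), potassium channels (0.25 over 36, no call) and stromal and endothelial genes (0.24 over 6, no call) are read against the value of 0.17. These groups held 5, 14, 19 and 9 of the genes that fell and 0, 3, 2 and 1 of those that rose.

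HEB is a related E protein, made from Tcf12, and its loss gives a comparison for specificity. Both knockouts were measured against the same 2 WT arrays, so their differences from WT are not independent, and the test of whether they differ is E2A-KO against HEB-KO. That test called 14 genes (0.117%), and 12 of the 53 genes called against WT were among them. They were Tcf3, Gbp8, Ccr9, Arpp21, AA467197, Mtmr9, Sqor, Dpy19l4, Nabp1, Arhgef3, Cd33 and Cdk19. For Cdk19 the HEB-KO arrays read 9.66 and 9.70 and the E2A-KO arrays 7.96 to 8.34, a difference of -1.51 (SE 0.20, limma adjusted p = 0.0372). For Arhgef3 they read 6.82 and 7.05 against at most 5.53, a difference of -1.69 (SE 0.22, limma adjusted p = 0.0372), and for Cd33 6.24 and 6.12 against 4.41 to 4.87, a difference of -1.59 (SE 0.22, limma adjusted p = 0.0459). AA467197 read 7.28 and 5.85 in HEB-KO cells, below WT 1 and WT 2, and differed between the knockouts by -3.45 (SE 0.45, limma adjusted p = 0.0372). The count of 14 was 1 without either HEB-KO array or without E2A-KO 1, 2 without E2A-KO 2, 4 without E2A-KO 4 and 6 without either WT array, and it was 21 without E2A-KO 3. Neutrophil markers read higher on the HEB-KO arrays, with list means of 7.11 and 8.57, than on 3 of the 4 E2A-KO arrays, and the 3′ to 5′ gaps of actin and Gapdh given above were smaller on both HEB-KO arrays than on every E2A-KO array. The part of either in this comparison was not tested.

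The other 41 called genes did not pass that test, which does not show that the knockouts were alike. Gpr174 had a small measured difference: its HEB-KO arrays read 3.30 and 3.22, its E2A-KO arrays 2.35 to 3.49 and its WT arrays 4.84 and 5.23. E2A-KO minus HEB-KO was -0.39 for it, with a 95% interval from -1.10 to 0.33. Its values in both knockouts lay below the array medians (3.82 and 3.84 on HEB-KO, 3.91 to 3.95 on E2A-KO arrays). At that dim level, how close the knockouts were cannot be read. Serpinb6b was also below the median on all E2A-KO arrays and on HEB-KO 2. For Serpinb6b the difference was -0.74 (interval -1.33 to -0.15), for Rtp4 -0.68 (-1.20 to -0.15) and for Plcg1 -0.70 (-1.18 to -0.21). Against WT, HEB-KO differed by -1.77, -1.42, -1.07 and -0.58 for these genes in that order, none of them called. Il7r, Xpc, Cd93, Cd72, Fcrl1 and Pdlim2 had measured differences between -0.07 and 0.07 from WT in HEB-KO cells. Their 95% intervals were wide, from -0.87 to 0.83 for Il7r and -0.54 to 0.45 for Cd93, so equality with WT is not shown. Differences of these genes between the knockouts ran from -2.13 to -1.30, with limma adjusted p-values between 0.0576 and 0.0708.

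**Figure D4:**
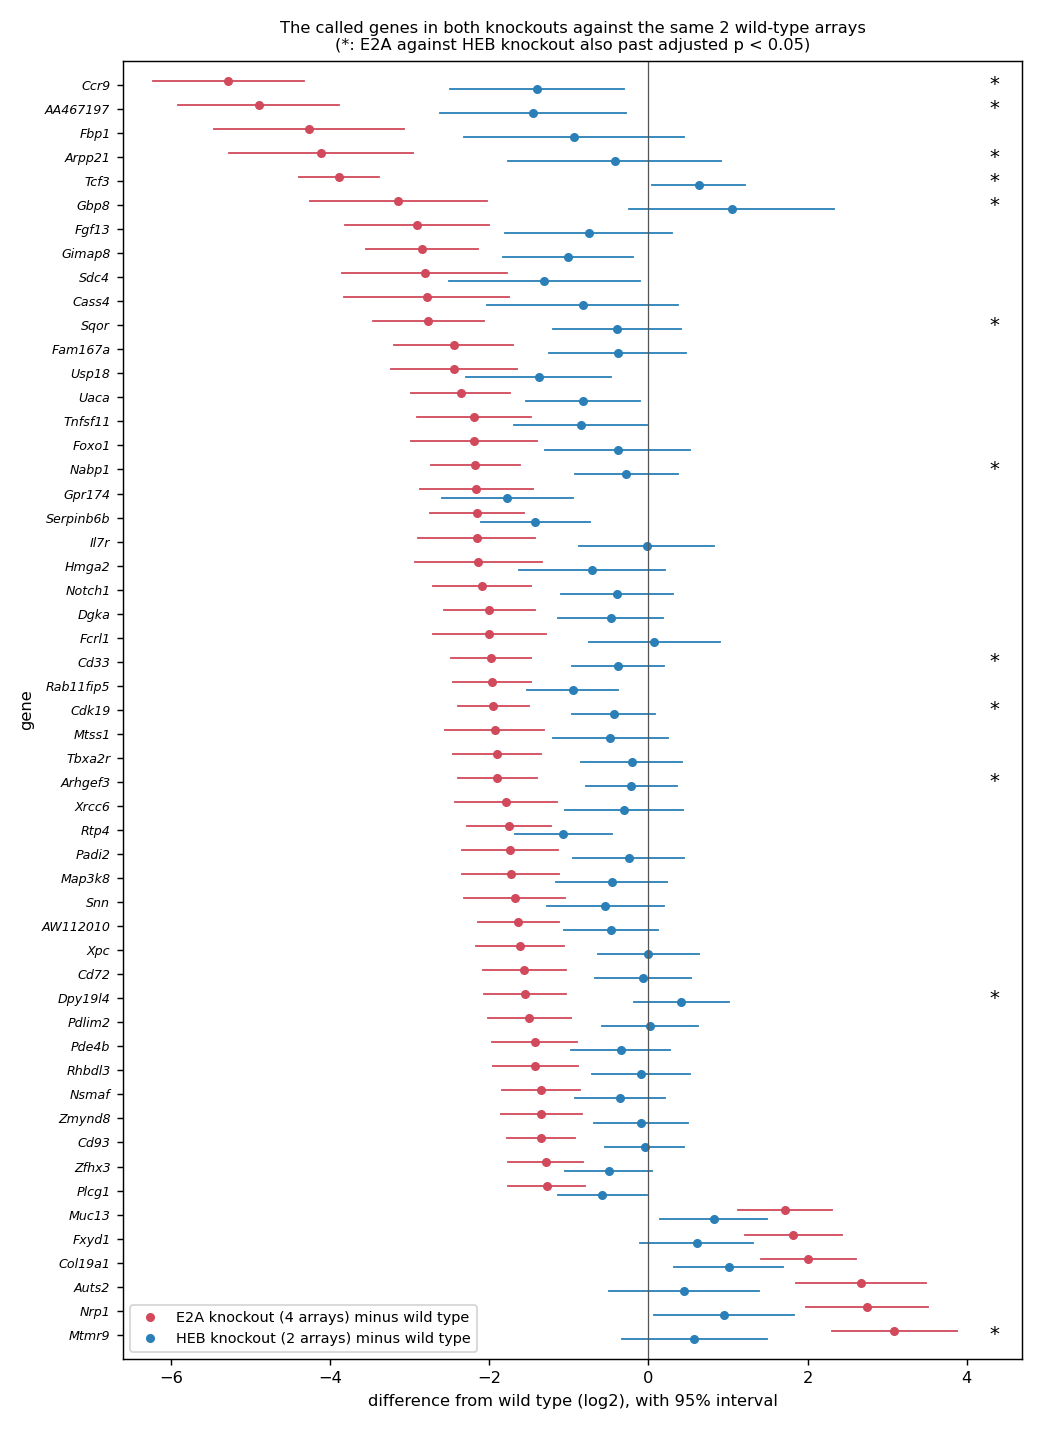
Difference from WT (horizontal axis, log2, points) with its 95% interval (bars) of the 53 genes called in E2A-KO cells (vertical axis), in E2A-KO cells in red and HEB-KO cells in blue. Stars mark the 12 genes that also pass the test between the knockouts. HEB-KO values of the genes that fell range from 1.05 for Gbp8 to -1.77 for Gpr174, and both sets of values share the same WT arrays.

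The 4 E2A-KO arrays varied among themselves. The median SD of a gene over them was 0.34 and 412 genes (3.45%) had an SD of at least 1, while the median gap between the WT arrays was 0.28. The called genes had a median SD of 0.30, with 0.91 as the largest. The 10 genes with the largest SD fell into a few patterns and none was called. Xist (SD 3.79) and Eif2s3y (3.09) split the arrays by sex-linked transcripts as given above. Fos, an immediate early factor, read 10.18 on E2A-KO 3 and 2.76 to 4.33 on the other E2A-KO arrays, and on WT arrays 9.09 and 3.74. The neutrophil genes S100a8, S100a9 and Ngp read 8.63, 6.99 and 8.65 on E2A-KO 3 and at most 4.71 on the other E2A-KO arrays. The mean over 7 neutrophil markers was 7.65 on E2A-KO 3, 4.84 to 5.08 on the others and 4.81 and 6.26 on WT arrays. Car1, an erythroid carbonic anhydrase, read 8.93 on E2A-KO 1 and 3.92 to 5.15 on the others, and the erythroid factor Klf1, outside these 10, read 7.81 there against 3.81 to 5.16. Of the remaining genes, Kctd14 and Mid1 differed between arrays without such a pattern. Plk4, a kinase of centriole duplication, read 7.56 and 7.85 on E2A-KO 1 and 2 and 3.04 and 4.84 on E2A-KO 3 and 4. The mean over the mitosis list was also higher on E2A-KO 1 and 2 (7.82 and 8.35) than on E2A-KO 3 and 4 (7.10 and 6.90). Values without E2A-KO 1 and without E2A-KO 3, the arrays with these signals of other cells, are given with the counts above, and the part of such cells in the calls was not tested further.

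**Figure D5:**
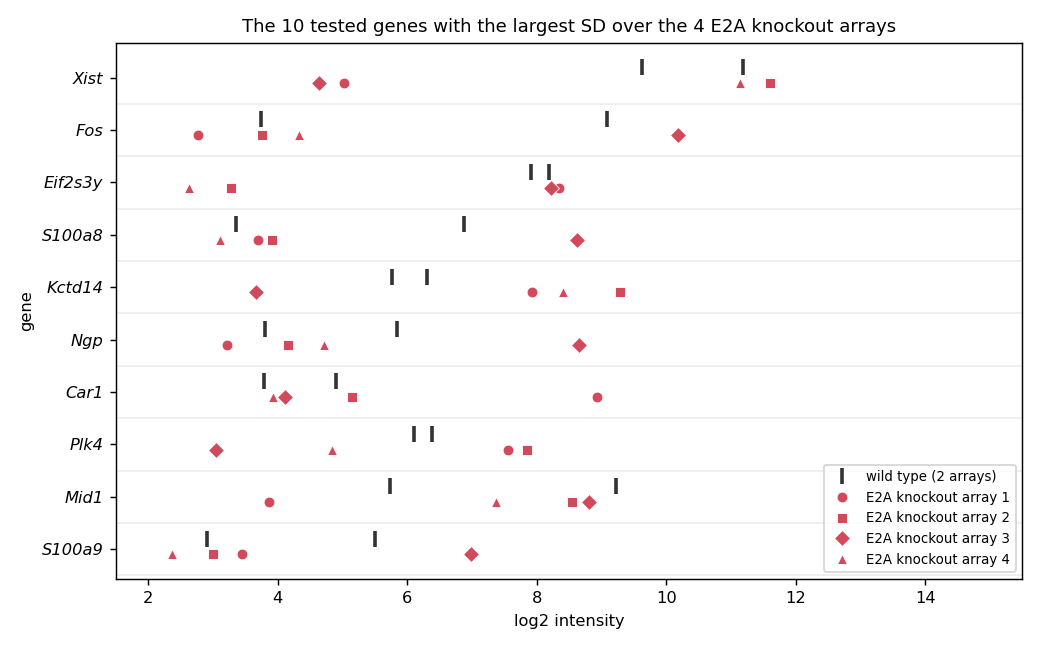
Log2 intensity (horizontal axis) of the 10 tested genes with the largest SD over the 4 E2A-KO arrays (vertical axis), with a symbol for each E2A-KO array and bars for the WT arrays. Fos, S100a8, Ngp and S100a9 are highest on E2A-KO 3, Car1 on E2A-KO 1, and Xist and Eif2s3y split the arrays into 1 and 3 against 2 and 4.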

How the data were processed

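RNA was hybridized to 8 Affymetrix mouse arrays. The deposited values are intensity per probe set, made with RMA per the submitters' processing notes, on a linear scale, and all columns belonged to these samples. Which RMA version and probe grouping were used is not stated there. Log2 of the deposited values was taken and nothing was normalized again. Of 45101 probe sets, 64 were controls, 932 named several genes and for 9160 the annotation held none. The number of arrays limits precision, and the median SE of a difference was 0.280.

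Limma (version 3.58.1, R 4.3.3) fitted a mean per genotype to all 8 arrays (5 residual degrees of freedom), tested two-sided. The fit was tested on simulated data. Same-numbered arrays did not deviate together (r = -0.154 and -0.0942), so numbers were not taken as pairs. Named were Tcf3 and its neighbours, all called genes, those nearest the threshold and those most variable over the E2A-KO arrays. Per list, called members and up to 3 others with the smallest p were named. Genes and lists were chosen with earlier results of these data known. Lists got no test. Alternatives changed the filter, scaling, probe set choice, variance model, covariates, arrays and threshold.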

Additional observations from a re-analysis of the deposited data

Results flagged for a closer look

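Among the named genes, list means and array signals, some had 1 E2A-KO array far from the other 3. This was seen in 9 of 231 groups of 4 values, and chance alone gives it in about 1 in 20. For single genes these were Cass4 at 4.74 on E2A-KO 1, Frmd6 at 5.28 on E2A-KO 4 and the neutrophil gene S100a8 at 8.63 on E2A-KO 3.

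E2A-KO 3 stood apart in 4 list means. It was lowest for myotubularins (6.34), cholesterol synthesis (6.01) and the unfolded protein response and chaperones (7.23), and highest for immediate early and heat shock genes (6.94). The mean over erythroid, megakaryocyte and mast cell genes was 5.47 on E2A-KO 1, above the others, and that over MAPK phosphatases and Sprouty genes was 4.73 on E2A-KO 2, below the others.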

How the results depend on the processing

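The main counts were 47 genes lower and 6 higher than WT and 14 that differed from HEB-KO. Leaving out each array in turn gave 1 to 82 lower, 0 to 22 higher and 1 to 21 for the knockouts. Cyclic loess gave 10 higher, and centring arrays gave 15 higher and 7 for the knockouts. A variance trend with robust fitting gave 77, 14 and 42, and array weights gave 99, 21 and 91. With WT and E2A-KO arrays alone 22 were lower. The first 2 E2A-KO arrays gave 12 higher and 3 for the knockouts. Numbers shared by arrays gave no sign of pairing, in a check that could not exclude it. A replicate block on these numbers gave 8 lower and 3 for the knockouts. With the hybridization control as covariate there were 1, 0 and 1, with 878 genes at an unadjusted limma p under 0.05. Without both WT 2 and HEB-KO 1 there were 0, 0 and 0, with 765 such genes. At an adjusted p under 0.01 there were 3, 0 and 1, and under 0.10 there were 132, 21 and 86. The cause was not tested. No named difference called against WT changed sign. The number of WT arrays and the low signal of dim genes limit what could be resolved.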
